A study of Mus musculus with 6 samples.

Results

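The 9 genes Pecam1, Kdr, Stab1, Stab2, Lyve1, Plvap, Clec4g, Tek and Eng mark the endothelial cells of liver sinusoids and vessels, and were followed in RNA from isolated mouse hepatocytes. They were chosen by name as liver endothelial markers, and each matched 1 of the 48432 genes in the deposited table. The 6 samples, all of strain FVB, fall into 3 groups of 2: hepatocytes of adults on normal feed, hepatocytes of adults fed DDC for 4 weeks, and hepatocytes from livers at embryonic day 18 (E18), with about 8 embryos pooled per preparation. DDC in the feed makes porphyrins build up and damages hepatocytes and bile ducts. The labels give no genotype, transgene, sex or adult age, and leave unsaid if separate mice gave the 2 adult samples of a group. A p-value here therefore measures no more than the spread between the samples, which may be technical. The samples of a group are called 0 and 1, as the table's columns number them. Levels are in TPM (transcripts scaled to a fixed total per sample, a measure per length). Read counts were not analysed here, so depth is unknown and low values carry an unknown counting error.

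Liver sinusoids are capillaries whose endothelial cells are perforated by open pores and carry scavenger receptors that clear waste from blood. Endothelium depends on growth factor signaling through VEGF and angiopoietin receptors, and on TGF-beta family ligands that endoglin helps to bind. Hepatocytes are not known as a main source of these transcripts. In bulk RNA, more endothelial cells in a preparation and more RNA of a gene per endothelial cell cannot be told apart.

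Hepatocyte RNA was strong in adult samples and lower at E18, and 1 normal fed sample was low in all the endothelial markers. At E18 an erythroid list summed to 12500 TPM in sample 0 and 23590 in sample 1. In sample 1 this was above the sum of the hepatocyte genes given next. A list of 12 hepatocyte genes summed to between 60460 and 63280 TPM in normal fed, 37680 and 38160 in DDC fed, and 10390 and 15720 in E18 samples. In that list albumin (Alb) is listed at 0 in all 6 samples, fibrinogen beta (Fgb) at 0 in both E18 samples, and Serpina1a at 0 in both normal fed samples against 462.4 ± 33.7 TPM in DDC fed and 297.3 ± 97.6 in E18 samples. Each of the 9 markers was lower in normal fed sample 1 than in normal fed sample 0, by 2.29 times for Clec4g up to 14.9 times for Lyve1. Across 14273 genes the level in sample 1 relative to sample 0 fell with total exon length, so longer genes tended to be lower in sample 1. Spearman rho was -0.39, a description across genes, which are not independent. The part of exon length in the markers' gap was not tested.

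Promoter sequence is shown for both stabilins, a pair of related scavenger receptors, and for Clec4g, whose levels were ordered differently from theirs between E18 and DDC samples. The RefSeq promoter table (GRCm38.p6) matched 6 of the 9 genes: Kdr, Stab1, Stab2, Clec4g, Tek and Eng. Pecam1, Lyve1 and Plvap were not matched. Each window holds 300 bases, printed 5′ to 3′ on the gene's strand, from 250 bases before the start site. Capitals mark the core AGGAAG, on either strand, that ETS factors such as the endothelial factor Erg can bind.
Stab1, chr14:31168592-31168891, minus strand: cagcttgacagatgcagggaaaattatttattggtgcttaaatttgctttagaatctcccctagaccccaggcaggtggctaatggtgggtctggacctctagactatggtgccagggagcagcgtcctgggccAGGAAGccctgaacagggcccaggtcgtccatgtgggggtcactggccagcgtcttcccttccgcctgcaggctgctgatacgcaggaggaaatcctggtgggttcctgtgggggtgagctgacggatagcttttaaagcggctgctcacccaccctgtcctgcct
Stab2, chr10:87007893-87008192, minus strand: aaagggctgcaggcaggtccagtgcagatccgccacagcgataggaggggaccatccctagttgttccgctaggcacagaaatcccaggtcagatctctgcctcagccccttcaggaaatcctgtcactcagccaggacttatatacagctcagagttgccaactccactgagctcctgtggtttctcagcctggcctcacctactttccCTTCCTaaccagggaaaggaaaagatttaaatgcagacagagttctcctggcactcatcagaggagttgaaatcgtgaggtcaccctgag
Clec4g, chr8:3720602-3720901, minus strand: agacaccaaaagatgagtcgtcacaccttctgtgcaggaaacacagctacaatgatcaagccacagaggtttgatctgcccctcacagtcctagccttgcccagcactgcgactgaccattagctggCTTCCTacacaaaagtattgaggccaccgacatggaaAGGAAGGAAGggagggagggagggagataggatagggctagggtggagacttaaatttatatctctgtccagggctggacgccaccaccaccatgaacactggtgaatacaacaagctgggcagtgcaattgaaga
The core AGGAAG was in 4 of the 6 windows, 1 copy in Stab1, 1 in Stab2, 2 in Eng and 3 in Clec4g (2 of which overlap), against 35.4% of 32851 windows in the table. The GATA core AGATAA was in Tek alone of the 6 (11.2% of all windows) and the SOX core ACAAAG in Tek and Eng (18.7%). The 6 motif counts describe these letters in this window and say nothing of a factor's binding.

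Markers shared by most endothelium were scarce in normal fed samples and highest at E18. Pecam1 (CD31, an adhesion molecule of endothelial junctions, chr11:106654217-106750628) was at 1.97 and 0.514 TPM in normal fed, 7.87 and 8.27 in DDC fed, and 41.0 and 44.4 in E18 samples. The groups did not overlap, and the 2 samples of a group lay close together except in normal fed adults. Eng (endoglin, a co-receptor for TGF-beta family ligands, chr2:32646595-32682669) was at 7.37 and 1.63 TPM in normal fed, 25.5 and 25.4 in DDC fed, and 56.5 and 62.9 in E18 samples. Kdr (the main VEGF receptor of endothelium, chr5:75932827-75978458) was at 4.51 and 0.688 TPM in normal fed, 10.7 and 11 in DDC fed, and 40.3 and 40.7 in E18 samples. Both showed the same order of groups as Pecam1. Tek (the angiopoietin receptor Tie2, chr4:94739289-94874976) was the least abundant of the 9 in DDC fed and E18 samples, at 1.15 and 0.156 TPM in normal fed, 2.70 and 3.22 in DDC fed, and 18.3 and 15.3 in E18 samples. Plvap forms the diaphragms that close endothelial pores (chr8:71497765-71511752). It was at 3.58 and 1.52 TPM in normal fed, 32.1 and 29.2 in DDC fed, and 30.2 and 28.4 in E18 samples. Plvap is the 1 marker of the 9 for which DDC fed and E18 samples overlapped. How many of all genes overlap so was not counted.

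The scavenger and lectin receptors of sinusoids split. Stab1 (stabilin 1, chr14:31139013-31168641) was at 6.55 and 1.43 TPM in normal fed, 19.5 and 21.1 in DDC fed, and 57.8 and 66.7 in E18 samples. Stab2 (stabilin 2, which takes up hyaluronan from blood, chr10:86841198-87008025) was at 4.29 and 0.866 TPM in normal fed, 14.0 and 13.8 in DDC fed, and 76.4 and 67.3 in E18 samples. Both stabilins followed the order normal fed, DDC fed, E18. Lyve1, a hyaluronan receptor of sinusoidal and lymphatic endothelium (chr7:110850607-110863239), was at 0.444 and 0.0299 TPM in normal fed, 3.75 and 4.36 in DDC fed, and 109.7 and 100.8 in E18 samples. It was the scarcest marker in normal fed and the most abundant in E18 samples. Clec4g (LSECtin, a C-type lectin of sinusoidal endothelium, chr8:3707064-3720651) was at 22.2 and 9.70 TPM in normal fed, 82.4 and 88.2 in DDC fed, and 44.4 and 46.9 in E18 samples. Clec4g alone of the 9 was higher in both DDC fed samples than in both E18 samples.

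**Figure D1:**
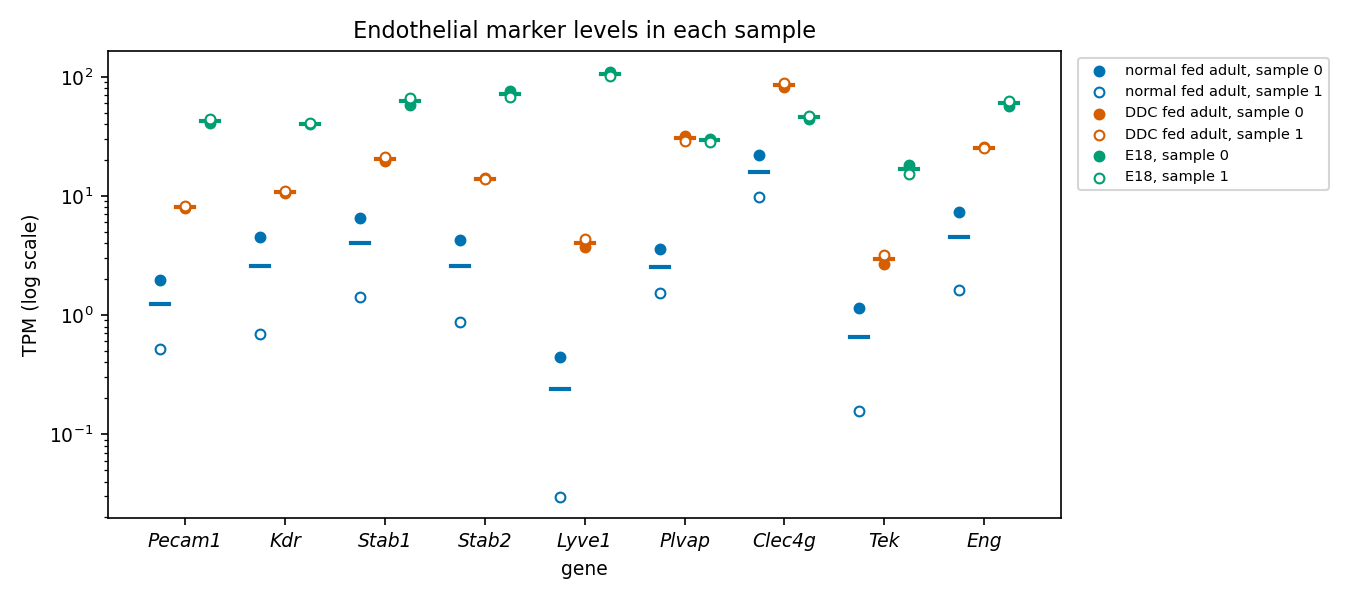
Level of each endothelial marker in each sample, in TPM on a log axis, with filled points for sample 0, open points for sample 1 and bars for the group mean. DDC fed samples lie highest for Clec4g, DDC fed and E18 samples overlap for Plvap, and normal fed sample 1 lies lowest for each gene.

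The genes are protein-coding on GRCm38, and all lie on the minus strand except Tek and Eng. Exons of Stab1 overlap those of Nt5dc2 on the opposite strand, and exons of Eng overlap those of Fpgs. The libraries were made with a stranded kit per the labels, but whether counting used strand is not given in the sources used here. Nt5dc2 was at 5.34 and 4.17 TPM in normal fed, 8.80 and 9.75 in DDC fed, and 142.6 and 123.8 in E18 samples, so the E18 level of Stab1 carries that uncertainty. Fpgs, which overlaps Eng, was at 178.6 and 128.4, 129.1 and 150.3, and 79.8 and 60.8 TPM in the same order. The level of Eng carries the same uncertainty, also in normal fed samples, where Eng was at 7.37 and 1.63 TPM. Stab2 and Clec4g share exonic bases with Gm16268 and Gm16553, which are listed at no more than 0.0943 TPM in any sample.

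The make-up of the marker RNA differed between adult and fetal preparations. The 9 genes summed to 52.1 and 16.5 TPM in normal fed, 198.6 and 204.5 in DDC fed, and 474.6 and 473.3 in E18 samples. Clec4g was 42.7% and 58.7% of that sum in normal fed and 41.5% and 43.1% in DDC fed samples, and 9.36% and 9.90% in E18 samples. Lyve1 was 0.853% and 0.181% of the sum in normal fed, 1.89% and 2.13% in DDC fed, and 23.1% and 21.3% in E18 samples. Adult preparations, on either feed, were thus dominated by the lectin, while Lyve1 took the largest share at E18. Plvap was 16.2% and 14.3% of the sum in DDC fed samples, above its 6.87% and 9.20% in normal fed and 6.36% and 6.0% in E18 samples. Eng varied least by ratio, between 9.85% and 14.1% over all 6 samples. These shares do not depend on how much marker RNA a sample held in all, though a share moves whenever another member's does. With 2 samples a group, an exact two-sided permutation test cannot go below p = 0.3333, so the shares are given as a description.

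**Figure D2:**
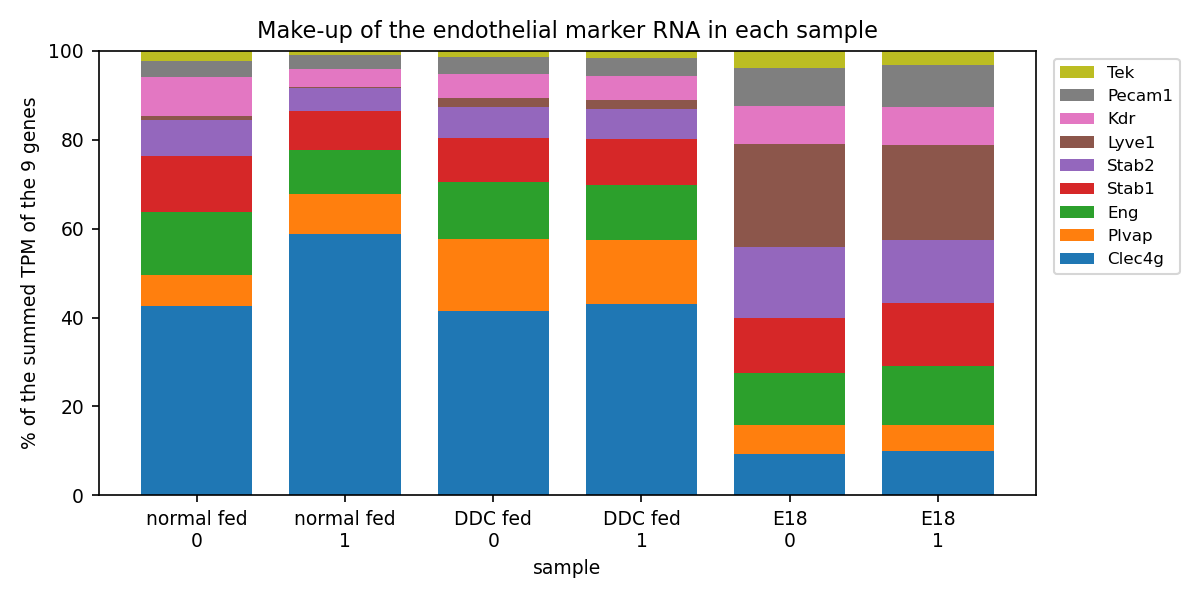
Share of each gene in the summed TPM of the 9 endothelial markers, as a percent, with 1 stacked bar per sample. Clec4g fills 41.5% or more of the bar in each adult sample and less than 10% at E18, where Lyve1 fills 23.1% and 21.3%.

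The order of levels shows the same contrast. In DDC fed samples it ran Clec4g, Plvap, Eng, Stab1, Stab2, Kdr, Pecam1, Lyve1, Tek, with each gene above the next in both samples. At E18 it ran Lyve1, Stab2, Stab1, Eng, Clec4g, Pecam1, Kdr, Plvap, Tek, and only Stab1 and Eng, neighbours there, overlapped. In normal fed samples Clec4g stood above Eng in both samples, and the other neighbours, from Eng down to Lyve1, overlapped. Among pairs of members, the ratio of Lyve1 to Stab2 was 0.104 and 0.0345 in normal fed, 0.268 and 0.316 in DDC fed, and 1.44 and 1.5 in E18 samples. The ratio of Clec4g to Stab2 was 5.18 and 11.2, 5.89 and 6.40, and 0.582 and 0.697. Thus against the same scavenger receptor the lectin was scarcer and the hyaluronan receptor more abundant at E18. The ratio of Cdh5 (VE-cadherin of endothelial junctions) to Pecam1 moved little, lying between 1.24 and 2.34 in the 6 samples.

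All 9 markers were higher in DDC fed than in normal fed adults. The comparison asks which of these transcripts differ in hepatocyte preparations after DDC feeding. Of the 9, 9 rose and none fell (limma, Benjamini-Hochberg adjusted p under 0.05), against 34.2% of 14307 genes tested that were higher and 3.07% that were lower. With median-ratio scaling, which sets the median gene equal between samples, 8 of the 9 rose, and the shares over all genes were 20.3% and 11.9%. Fold changes are differences of log2(TPM + 1), given ± SE, and understate the change of low genes. On this scale Plvap rose most (3.22 ± 0.30, adjusted p = 0.000412), followed by Eng (2.50 ± 0.49, adjusted p = 0.00841) and Clec4g (2.45 ± 0.35, adjusted p = 0.00227). With 0.1 added to TPM in place of 1, Lyve1 rose most (3.96), ahead of Plvap (3.65), so the ranking depends on that choice. Stab1 rose by 2.32 ± 0.49 (adjusted p = 0.0108) and Stab2 by 2.25 ± 0.45 (adjusted p = 0.0091), and the difference between these related receptors was not tested. Pecam1 rose by 2.10 ± 0.33 (adjusted p = 0.00313), Lyve1 by 2.05 ± 0.23 (adjusted p = 0.000856), Kdr by 1.96 ± 0.50 (adjusted p = 0.0229) and Tek by 1.32 ± 0.31 (adjusted p = 0.0159). The median over the 9 was 2.25, beside 0.45 over all genes tested. Lyve1 passed the filter on low values through its DDC fed and E18 samples, since it was under 1 TPM in both normal fed samples.

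The size of the rise with DDC rests on which normal fed sample is used, while its direction does not. Without normal fed sample 1 the median over the 9 genes was 1.61, and without normal fed sample 0 it was 3.0. All 9 differences stayed above 0 in either case. A fit with 1 normal fed sample carries no normal fed spread, so passing in it is no separate check. Kdr moved most, from 1.10 without normal fed sample 1 to 2.81 without normal fed sample 0. Kdr, Stab1, Stab2 and Tek missed the threshold without either DDC fed sample (adjusted p from 0.0511 to 0.103), and these and Eng missed it without either E18 sample (0.0636 to 0.108). With median-ratio scaling Kdr did not pass (1.53, adjusted p = 0.06). Pecam1, Lyve1, Plvap and Clec4g passed whichever of the 6 samples was left out.

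All 9 markers were also higher at E18 than in normal fed adults. The comparison sets fetal against adult hepatocyte preparations and shares its normal fed samples with the comparison above. Of the 9, 9 rose and none fell, against 63.0% of genes tested that were higher and 12.7% that were lower. With median-ratio scaling 8 of the 9 rose, and the shares over all genes were 38.1% and 31.6%. Lyve1 rose by 6.44 ± 0.23 (adjusted p = 1.74e-06), ranking 136 from the highest of 14307 genes. Stab2 rose by 4.53 ± 0.45 (adjusted p = 0.00011), Pecam1 by 4.36 ± 0.33 (adjusted p = 2.64e-05) and Stab1 by 3.88 ± 0.49 (adjusted p = 0.000347). Kdr rose by 3.77 ± 0.50, Eng by 3.69 ± 0.49, Tek by 3.49 ± 0.31 and Plvap by 3.16 ± 0.30 (adjusted p from 5.9e-05 to 0.000473). Clec4g rose least, by 1.56 ± 0.35 (adjusted p = 0.00585). The median over the 9 was 3.77, beside 1.06 over all genes tested, so Clec4g exceeded the median gene by 0.50 and Lyve1 by 5.38. Clec4g did not pass with median-ratio scaling (0.42, adjusted p = 0.179), nor without E18 sample 0 or sample 1 (adjusted p = 0.0677 and 0.0773). Leaving out a normal fed sample moved the median over the 9 to 3.04 or 4.62, and all 9 differences stayed above 0. Such a fit carries no normal fed spread, so passing in it is no separate check.

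Between DDC fed adults and E18, most markers were lower in the DDC fed samples, and Plvap and Clec4g were not. Of the 9, 6 were lower and none higher, against 47.0% of genes tested that were lower and 17.7% that were higher (34.6% and 27.4% with median-ratio scaling). Lyve1 differed most (-4.40 ± 0.23, adjusted p = 1.03e-05), a mean of 4.05 ± 0.427 TPM in DDC fed against 105.2 ± 6.28 TPM in E18 samples (SD, n = 2). Stab2 (-2.29 ± 0.45, adjusted p = 0.00415), Pecam1 (-2.27 ± 0.33, adjusted p = 0.000949) and Tek (-2.17 ± 0.31, adjusted p = 0.000902) were also lower with DDC. Kdr (-1.81 ± 0.50, adjusted p = 0.0172) and Stab1 (-1.57 ± 0.49, adjusted p = 0.0267) passed too. Eng did not pass (-1.20 ± 0.49, adjusted p = 0.0696), nor did Clec4g (0.89 ± 0.35, adjusted p = 0.0627). Plvap differed by 0.06 ± 0.30 (adjusted p = 0.866), with a 95% interval from -0.66 to 0.78. Each gene has a single variance over the 3 groups in this fit, and so carries the wide normal fed spread. With only DDC fed and E18 samples in the fit, Clec4g was higher with DDC (adjusted p = 0.000819) and Eng lower (0.00034). Leaving out 1 normal fed sample likewise leaves only the spread within DDC fed and E18 samples, so it is no separate check. With median-ratio scaling Clec4g was higher (1.39, adjusted p = 0.0039), while Kdr and Stab1 did not pass (-1.31 and -1.06, adjusted p = 0.0588 and 0.0787). Kdr and Stab1 did not pass without either DDC fed sample or either E18 sample (adjusted p from 0.0652 to 0.202), nor did Stab2 without either E18 sample (0.0675 and 0.0744).

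**Figure D3:**
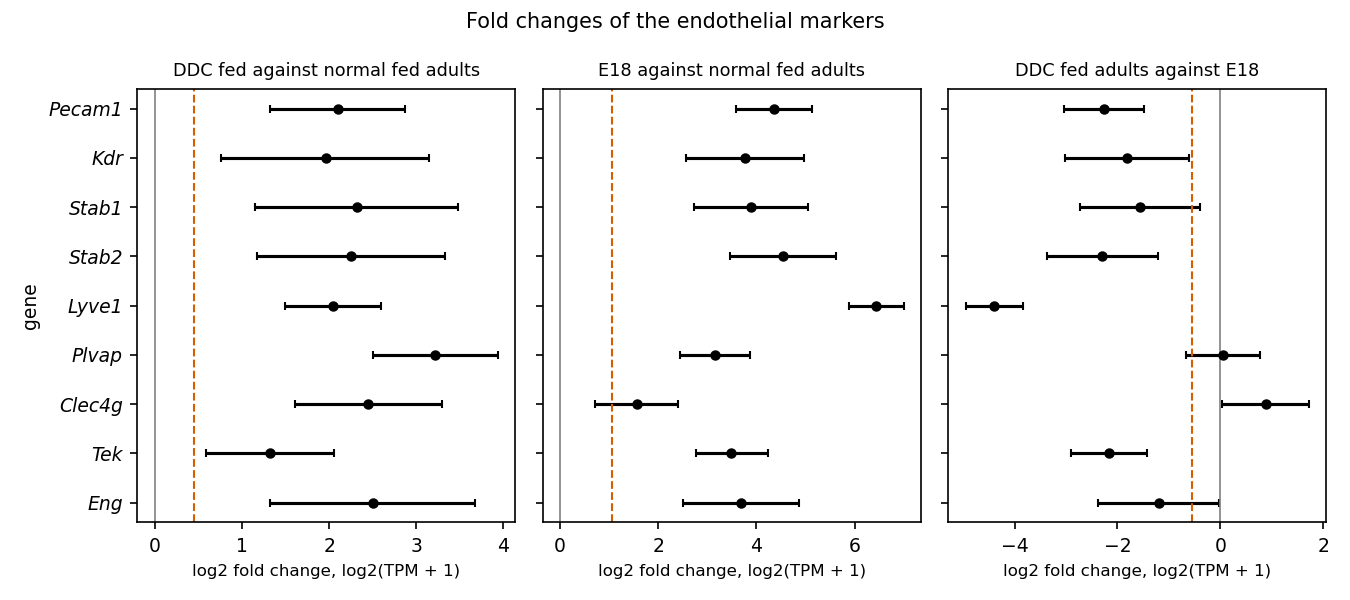
Difference in log2(TPM + 1) of each endothelial marker in the 3 comparisons, with points for the estimate and bars for the 95% interval. The grey line marks no difference and the dashed line the median of all genes tested (0.45, 1.06 and -0.55), and Lyve1 lies farthest from it in both panels with E18.

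Other endothelial genes were also higher in both comparisons, with smaller changes under DDC than at E18. Of 26 further genes of endothelium 22 rose with DDC (median 1.21) and 25 at E18 (median 3.17), where 34.2% and 63.0% of all genes rose. Compared directly, 25 of the 26 were lower in DDC fed than in E18 samples, where 47.0% of all genes were. With median-ratio scaling 15 rose and 1 fell with DDC, and 25 rose and 1 fell at E18. Thbd (thrombomodulin, an anticoagulant receptor) rose from 0.219 ± 0.181 TPM to 3.95 ± 0.375 with DDC and 16.0 ± 2.62 at E18 (2.03 ± 0.21 and 3.8 ± 0.21). Cd93 (1.96 ± 0.20), Ecscr (1.63 ± 0.22) and Cdh5 (2.21 ± 0.31) rose with DDC as well, and Cd93 (4.40 ± 0.20), Myct1 (3.68 ± 0.21) and Icam2 (4.2 ± 0.25) at E18. Sox7, Calcrl, S1pr1 and Nos3 did not pass with DDC (adjusted p from 0.0637 to 0.615). S1pr1, a sphingosine phosphate receptor, went against the rest, at 31.8 ± 11.5, 26.7 ± 3.98 and 19.9 ± 3.76 TPM in normal fed, DDC fed and E18 samples, and did not pass at E18 either (-0.62 ± 0.30, adjusted p = 0.0944). The DDC count moved when 1 sample was left out, and the share of all genes that rose moved the same way.

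Of 18 further sinusoidal genes tested, of 20 listed, 17 rose with DDC and 16 at E18. Medians were 1.80 and 2.77, and with median-ratio scaling 11 and 15 rose. The shares of all genes that rose were 34.2% and 63.0%, or 20.3% and 38.1% with that scaling. Cd36, a fatty acid and scavenger receptor that hepatocytes and macrophages also express, was at 1.71 ± 0.355 TPM in normal fed, 174.3 ± 13.9 in DDC fed and 50.7 ± 2.50 in E18 samples (6.02 ± 0.20 and 4.26 ± 0.20 against normal fed). Rspo3, a Wnt pathway amplifier of central vein endothelium, rose from 0.326 ± 0.148 to 3.15 ± 0.0441 with DDC and 7.05 ± 0.172 TPM at E18. Flt4 (2.36 ± 0.35) and Fcna (2.24 ± 0.23) rose with DDC, and Fcna (4.40 ± 0.23) and Wnt2 (2.10 ± 0.18) at E18. Fcna lacked the gap of the 9 markers between the normal fed samples (12.6 and 11.5 TPM). The part of other cell types in its level was not tested. Gata4, a transcription factor of sinusoidal identity, did not pass in either (0.22 ± 0.44 and 0.79 ± 0.44, adjusted p = 0.73 and 0.142), nor Cd300lg at E18 (0.85 ± 0.45, adjusted p = 0.124). Wnt9b and Cd209b were too low to test. The DDC count of this list also moved when 1 sample was left out, in the same direction as the share over all genes.

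Genes of continuous, activated or sprouting vessels were mostly higher at E18 than in adult samples. Of 17 tested, 9 rose with DDC (median 0.65) and 17 at E18 (median 3.20), and with median-ratio scaling 8 and 16. Over all genes 34.2% rose with DDC and 63.0% at E18. Compared directly, 13 were lower in DDC fed than in E18 samples, Ly6a was higher (1.11 ± 0.26, adjusted p = 0.00933), and Col4a1, Col4a2 and Icam1 did not pass. The Ly6a call was lost without DDC fed sample 0 or either E18 sample. Vwf (von Willebrand factor, scarce in adult sinusoids and also made by megakaryocytes) was at 0.0437 ± 0.049 TPM in normal fed, 0.436 ± 0.168 in DDC fed and 44.2 ± 3.90 in E18 samples. Vwf rose at E18 (5.44 ± 0.18) and did not pass with DDC (0.46 ± 0.18, adjusted p = 0.0848). The platelet factor Pf4 was at 0.546 ± 0.0524, 3.96 ± 0.235 and 1038 ± 133.0 TPM in normal fed, DDC fed and E18 samples, and the part of megakaryocytes in the E18 level of Vwf was not tested. The difference in Vwf between DDC fed and E18 samples was -4.98 ± 0.18 (adjusted p = 2.55e-06). Cd34 (4.58 ± 0.19), Cxcr4 (6.66 ± 0.31) and Vcam1 (6.53 ± 0.19) rose at E18, and all 3 are also expressed outside endothelium. With DDC, Vcam1 (4.49 ± 0.19), Icam1 (4.07 ± 0.29), Pdgfb (2.24 ± 0.16) and the basement membrane collagen Col4a1 (4.86 ± 0.42) rose.

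Ligands and partners of the receptors among the 9 moved unevenly. In the VEGF pathway 5 of 8 genes tested rose with DDC and 1 fell (2 and 2 with median-ratio scaling), where 34.2% of all genes rose and 3.07% fell. Vegfa, the main ligand of Kdr and a hepatocyte product, fell from 141.1 ± 13.9 to 77.4 ± 8.54 TPM (-0.86 ± 0.21, adjusted p = 0.0182), and was at 97.4 ± 11.5 TPM at E18 (-0.53 ± 0.21, adjusted p = 0.0509). The fall with DDC did not pass without DDC fed sample 0 or sample 1. Vegfb (1.57 ± 0.21), Vegfc (0.94 ± 0.28), Vegfd (0.40 ± 0.11), Flt1 (0.80 ± 0.26) and Flt4 rose with DDC. Of these Vegfc, Vegfd and Flt1 did not pass with median-ratio scaling, or without DDC fed sample 0 or sample 1. Without normal fed sample 1 Vegfc and Flt1 did not pass (adjusted p = 0.0578 and 0.0812), nor Vegfd without normal fed sample 0 (0.109). The co-receptors Nrp1 and Nrp2 did not pass with DDC (adjusted p = 0.145 and 0.083). At E18, 6 of the 8 rose (5, with 2 lower, with median-ratio scaling), near the 63.0% of all genes (38.1% with that scaling). Among them were the decoy and signaling receptor Flt1 (3.55 ± 0.26), Flt4 (3.49 ± 0.35), Vegfb (1.78 ± 0.21) and Vegfd (1.34 ± 0.11).

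Angpt1, the ligand that activates Tek, was high at E18 and near 0 in adults. It was at 0.0185 ± 0.00751 TPM in normal fed, 0.144 ± 0.049 in DDC fed and 11.5 ± 0.25 in E18 samples (3.62 ± 0.12 at E18, adjusted p = 1.62e-06). With DDC its fold change was 0.17 ± 0.12 (adjusted p = 0.326). Of 4 genes of the angiopoietin and Tie pathway tested, 4 rose at E18, the others being Angpt2 (1.28 ± 0.11), Tie1 (2.68 ± 0.34) and the phosphatase Ptprb (2.23 ± 0.46). With DDC 1 rose, Ptprb (1.59 ± 0.46, adjusted p = 0.0359), and with median-ratio scaling none. The shares of all genes that rose were 63.0% at E18 and 34.2% with DDC. Ptprb did not pass without either DDC fed sample in that comparison, nor without either E18 sample in both. Angpt2 and Tie1 did not pass with DDC (adjusted p = 0.171 and 0.629).

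Gdf2 and Tgfb1, ligands that endoglin helps to bind, rose in both comparisons. Of 20 genes of the endoglin and ALK1 pathway 9 rose with DDC, and 12 rose and 3 fell at E18 (5, and 7 and 6, with median-ratio scaling). Over all genes 34.2% rose with DDC, and 63.0% rose and 12.7% fell at E18, so the E18 count of this list lies near the background. Gdf2 (BMP9, a ligand of endoglin and ALK1 made in liver) was at 0.875 ± 0.667 TPM in normal fed, 11.7 ± 0.851 in DDC fed and 16.3 ± 2.66 in E18 samples (2.81 ± 0.29 and 3.25 ± 0.29). Bmp10 reached 6.72 ± 0.0639 TPM at E18 (2.83 ± 0.13). Tgfb1 (2.38 ± 0.29 and 6.10 ± 0.29) and the receptor Acvrl1, or ALK1 (1.20 ± 0.21 and 2.85 ± 0.21), rose with DDC and at E18. Tgfbr2 rose most with DDC (4.23 ± 0.33), and Tgfbr3 rose at E18 (3.15 ± 0.24). The target genes Id2 (-1.21 ± 0.21) and Id3 (-1.90 ± 0.23), and the inhibitor Smad7 (-0.77 ± 0.27), fell at E18. The log2 change of Id1, another target, was 0.56 ± 0.23 at E18 (adjusted p = 0.0638) and rose with DDC (1.27 ± 0.23, adjusted p = 0.00615), though not with median-ratio scaling (0.59, adjusted p = 0.162) or without DDC fed sample 0 (0.0709). The DDC count was larger without normal fed sample 0 and smaller without DDC fed sample 0, as was the share over all genes. Smad7 did not pass at E18 without normal fed sample 0 or either E18 sample.

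Of 9 hyaluronan genes and stabilin ligands tested, 7 rose with DDC and 6 at E18, where 1 fell. Under median-ratio scaling the counts were 7 higher and 1 lower with DDC, and 6 higher and 3 lower at E18. The E18 count lies near the 63.0% and 12.7% over all genes, while 34.2% of all genes rose with DDC. Hyal1, a hyaluronan-degrading enzyme, fell at E18 (-2.74 ± 0.35, adjusted p = 0.000359). The hyaluronan receptors Cd44 (2.95 ± 0.21 and 5.73 ± 0.21) and Hmmr (2.81 ± 0.19 and 5.75 ± 0.19), the second also a mitosis gene, rose in both. Gdf15, a stress-induced factor that stabilins clear, was at 13.4 ± 2.85 TPM in normal fed, 204.4 ± 49.8 in DDC fed and 15.7 ± 7.80 in E18 samples, and rose with DDC (3.83 ± 0.37). Tgfbi rose with DDC (3.61 ± 0.29) and Postn at E18 (4.32 ± 0.19). Has2, a hyaluronan synthase, is listed at 0 in both normal fed samples and was at 5.09 ± 0.185 TPM at E18. Of 4 lymphatic genes tested Reln (3.41 ± 0.41) and Flt4 rose with DDC, and these and Mmrn1 at E18. Reln is also counted in the stellate and fibroblast list, and Flt4 in the sinusoidal and VEGF lists. Mmrn1, which megakaryocytes also make, reached 29.3 ± 1.07 TPM at E18. Prox1, which hepatocytes express, did not pass in either (adjusted p = 0.168 and 0.407). Pdpn and Ccl21a were too low to test, and Ccl21a is listed at 0 in all 4 adult samples.

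Macrophage and stellate cell markers were higher in both comparisons, as the 9 genes were, and some of the 9 are shared with other cells. Stab1 and Lyve1 are also made by macrophages, and Pecam1, Tek and Eng by blood progenitors, with Pecam1 on platelets too. Of 15 macrophage markers 15 rose with DDC and 15 at E18 (15 and 13 with median-ratio scaling), where 34.2% and 63.0% of all genes rose. The summed level of these markers was 135.7 to 170.3 TPM in normal fed, 1259 to 1554 in DDC fed and 4066 to 5261 in E18 samples, with none at 0 in any sample. Of 13 stellate and fibroblast markers 12 rose in each comparison, and the sum was 13.8 to 30.2, 358.4 to 400.4 and 298.3 to 326.5 TPM, with Acta2 at 0 in normal fed samples. The part of these cells in the levels of Stab1 and Lyve1 was not tested.

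Of 9 platelet, megakaryocyte and progenitor markers 4 rose with DDC (Pf4, Cd34, Kit and Itga2b) and 9 at E18 (3 and 9 with median-ratio scaling). Of all genes 34.2% rose with DDC and 63.0% at E18, so the DDC count of this list lies near that share. The list summed to 2.19 to 2.46 TPM in normal fed, 10.5 to 10.8 in DDC fed and 2045 to 2315 in E18 samples. With DDC the rises were 1.68 ± 0.19 for Pf4, 1.30 ± 0.19 for Cd34, 1.19 ± 0.24 for Kit and 0.67 ± 0.22 for Itga2b (limma, adjusted p = 0.0493 for Itga2b). Gp9, a platelet glycoprotein, is listed at 0 in all 4 adult samples. The part of blood cells in the levels of Pecam1, Tek and Eng was not tested. The erythroid list summed to 16.8 to 26.0 TPM in normal fed, 7.76 to 8.5 in DDC fed and 12500 to 23590 in E18 samples. Of its 9 genes tested none rose and Alas2, a heme synthesis enzyme, fell with DDC (-1.42 ± 0.33, adjusted p = 0.0165), a call lost without either DDC fed sample, and 9 rose at E18. The cholangiocyte list summed to 3.40 to 3.86, 74.3 to 93.3 and 94.3 to 153.0 TPM in normal fed, DDC fed and E18 samples. Of its 7 genes Spp1 (4.43 ± 0.23), Sox9 (2.68 ± 0.27) and Cldn7 rose with DDC, Cldn7 being listed at 0 in both normal fed samples, and 6 rose at E18. These counts stand beside 34.2% and 63.0% over all genes, and with median-ratio scaling 3 and 6 rose. The Cldn7 call was lost without either DDC fed sample or without normal fed sample 1. Between the normal fed samples, sample 0 against sample 1, the sums were 79.7 and 36.9 TPM for the 26 further endothelial genes, 170.3 and 135.7 for macrophage, 30.2 and 13.8 for stellate and 63280 and 60460 for hepatocyte genes.

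**Figure D4:**
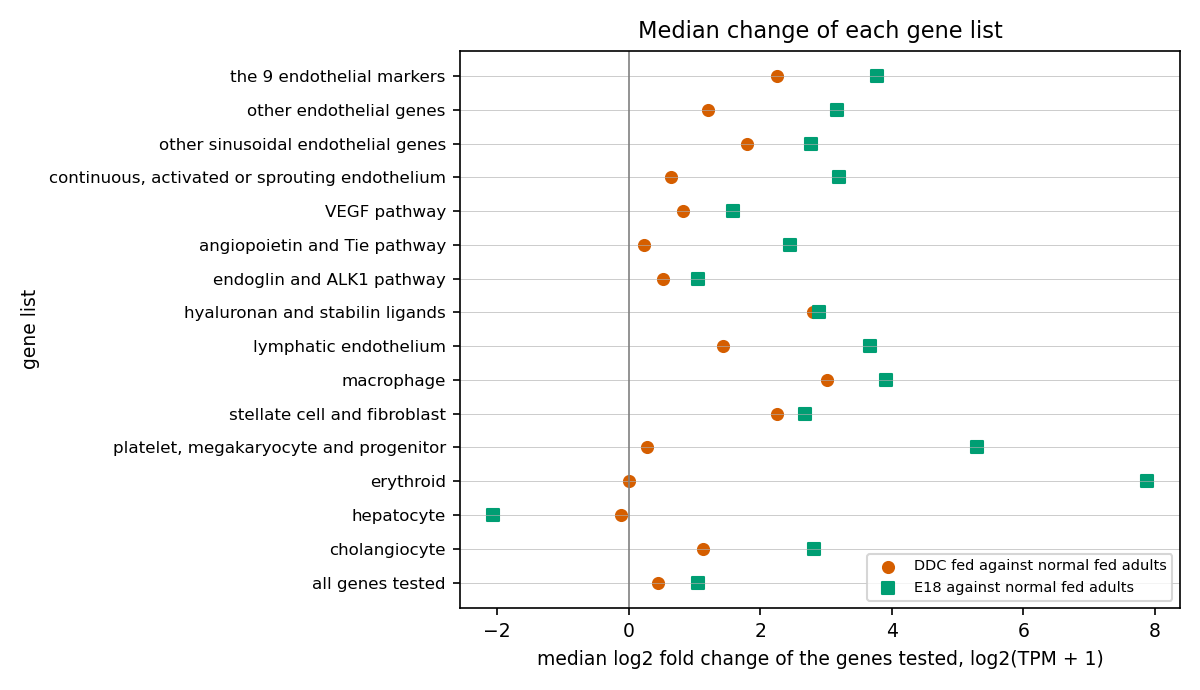
Median difference in log2(TPM + 1) of the genes tested in each list, for DDC fed (circles) and E18 (squares) against normal fed adults. The 9 endothelial markers lie at 2.25 and 3.77 and all genes tested at 0.45 and 1.06, with macrophage genes at 3.02 and 3.91.

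Likeness in profile was the Euclidean distance over the 6 samples between a gene's centred log2(TPM + 1) values and the median of the 9 markers. The nearest were Mrc1 (distance 0.26), Plxnc1 (0.34), Ehd3 (0.34), Esam (0.39) and Tspan7 (0.45). Mrc1, the mannose receptor of sinusoidal endothelium and macrophages, was at 6.0 and 1.98 TPM in normal fed, 19.2 and 19.9 in DDC fed, and 63.6 and 67.9 in E18 samples. Of the 9 themselves, Kdr (0.19) and Stab1 (0.35) lay nearest their median, and Lyve1 (3.07), Clec4g (2.93) and Plvap (1.95) farthest.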

How the data were processed

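The authors deposited TPM for 48432 genes in 6 samples. Per the submitters' processing notes, the build was GRCm38 (mm10), and the tools included STAR 2.4.2a, HTSeq, Cuffdiff 2.2.1, DESeq2, Picard 1.119, Trimmomatic and bcl2fastq 2.17.1.14. Which of them made the TPM values, with what annotation and filters, is not stated there. Since the table numbers its columns 0 and 1 and the sample titles run 1 and 2, a column is known by its group alone. Gene identifiers were matched without their version to symbols of GENCODE M21, which held 48053 of them.

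The 14307 genes that reached 1 TPM in 2 or more samples were tested. In limma 3.58.1 (R 4.3.3), log2(TPM + 1) was modelled by group means over the 6 samples (empirical Bayes variances following the mean, 3 residual degrees of freedom). P-values are two-sided, adjusted by Benjamini and Hochberg over all genes tested, with a threshold of 0.05. The fit was tested on simulated data. Columns of TPM keep no depth, so no count test was run.

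The members and gene lists were chosen with earlier results of these data known. Genes named outside the 9 are up to 4 of a list with the smallest adjusted p, all members of a count of 5 or fewer, and the 5 most alike in profile, predicted genes left out. Genes such as Vwf, Bmp10, Id1, Nt5dc2, Fpgs and Gp9 that fall outside this rule where they are given were picked after their values were seen. Alternatives were median-ratio and quantile scaling, rescaling without the 50 highest genes and the erythroid list, pseudocounts of 0.1 and 5, testing unfiltered genes or those averaging at least 5 TPM, an adjusted p of 0.01, a fold of at least 2, only the compared groups, a replicate block and each sample left out. Removing each sample's trend with exon length was added after seeing the data.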

Additional observations from a re-analysis of the deposited data

How the results depend on the processing

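Directions held for the 9 genes in all 3 comparisons under every alternative run, except for Plvap between DDC fed adults and E18, whose difference was -0.01 without DDC fed sample 0 (range -0.01 to 0.13 when 1 sample was left out) and -0.20 with the exon-length trend removed. For DDC fed against normal fed adults, 9 genes were called, 4 with only those 2 groups in the fit, and 4 to 9 when 1 sample was left out. For E18 against normal fed adults the count was 9, and 8 to 9 when 1 sample was left out. For DDC fed adults against E18 it was 6, and 3 to 8 when 1 sample was left out. Leaving out a sample also leaves fewer degrees of freedom, and the remaining lone sample is taken to vary as the rest do. Scaling moved the median difference of all genes tested from 0.45 to -0.01 (DDC fed against normal fed) and from 1.06 to 0.09 (E18 against normal fed) with median-ratio scaling. Whether the numbers of the columns pair the samples is not known. Deviations of same-numbered samples correlated at r = 0.233, 0.139 and 0.061 across genes, and with the replicate block 9, 9 and 8 genes were called. Depth is unknown, so the counting error of values such as 0.0299 TPM for Lyve1 cannot be given.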
